A study of Bos taurus with 10 samples.

Results

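The TGF-beta, BMP and activin pathway was examined in right ventricular tissue of newborn calves through all 48 probe sets, standing for 34 genes, whose single gene symbol begins with TGFB, BMP, SMAD, ACVR, INHB, GDF or LTBP or belongs to the follistatin family. They were taken from 24016 tested probe sets of the Affymetrix Bovine GeneChip, on which several short probes together make up the value of a transcript. The 5 hypoxia calves, titled PH calf (173, 178, 192, 199 and 204), lived for 14 days in hypobaric hypoxia at the air pressure of 4570 m. The 5 control calves (176, 177, 180, 181 and 195) lived in ambient air at 1525 m. All 10 calves were male Holsteins that entered the study between postnatal days 3 and 7, and each gave 1 array. Low oxygen constricts the small arteries of the lung and loads the right ventricle, and the question was how that chamber's expression differed after such exposure.

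Ligands of this superfamily are secreted as dimers and bind pairs of type I and type II receptors, which are kinases of the cell surface. TGF-beta and activin receptors phosphorylate SMAD2 and SMAD3, while BMP receptors phosphorylate SMAD1, SMAD5 and SMAD9, and SMAD4 joins either group on its way to the nucleus. Latency proteins tether TGF-beta in the matrix, and secreted antagonists such as follistatin capture activins and BMPs before they reach a receptor. In the heart the pathway is known for its part in valve and septum formation, in fibroblast activation and in the deposition of matrix.

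TGFB2, a TGF-beta ligand, and FSTL3, a secreted antagonist of activin, were the only members to pass the test, and both were higher in hypoxia by more than 3 times. No ligand, receptor, antagonist or transducer of the pathway passed as lower in hypoxia. Of the 48 probe sets, 2 rose and 0 fell (limma with Benjamini-Hochberg adjustment over all probe sets, adjusted p under 0.05), a share of 4.17% against 2.71% of all 24016 probe sets tested, of which 1.65% rose and 1.07% fell. At an unadjusted p under 0.05 there were 8 members, or 16.7%, against 17.7% of all probe sets. The median difference of the members was 0.07 on the log2 scale, against -0.02 over all probe sets. The members as a whole thus lay close to the rest of the array, and the results below concern single genes. Differences are hypoxia minus control in log2 expression ± SE, from 5 calves in each group.

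**Figure D1:**
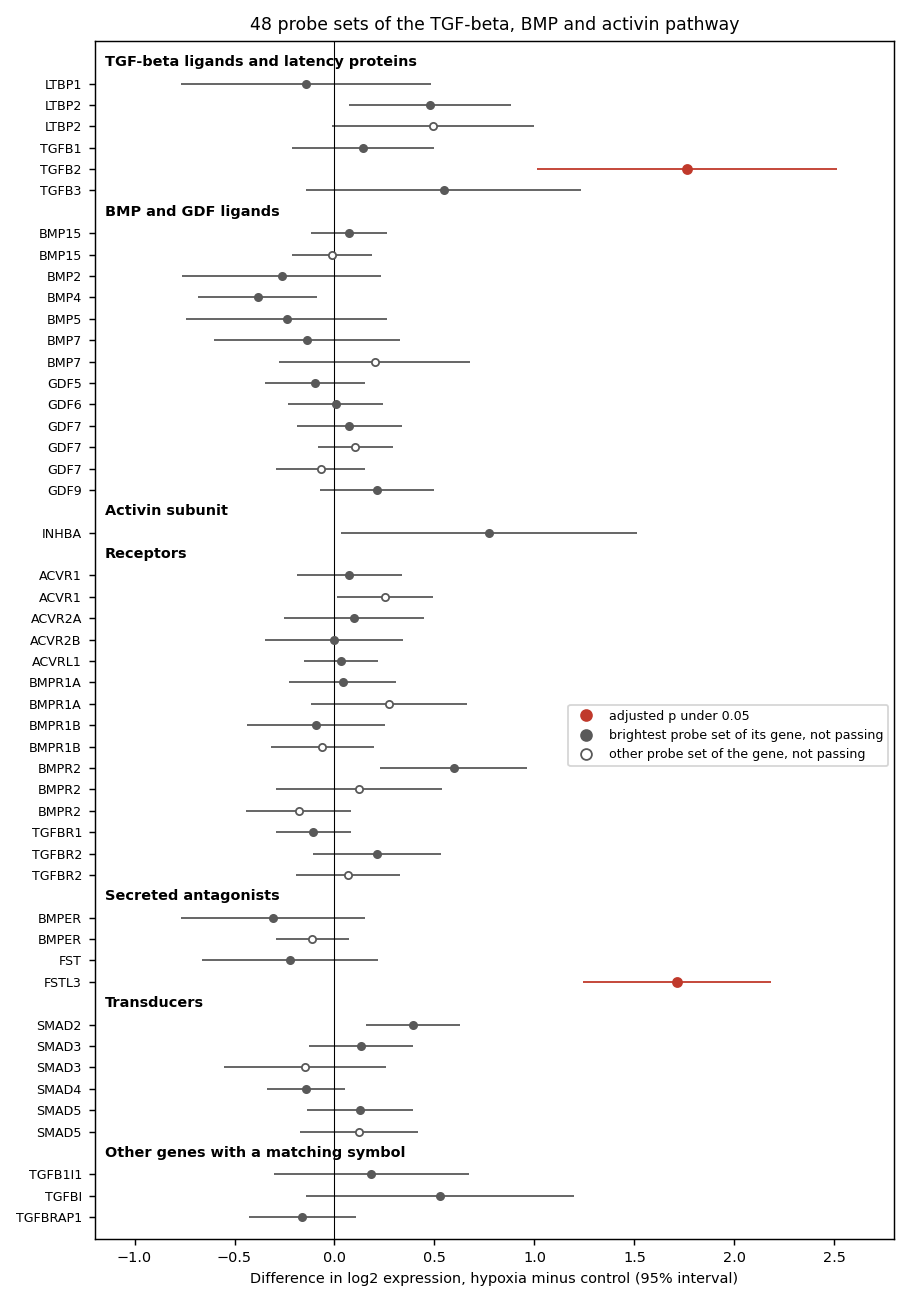
Difference in log2 expression (hypoxia minus control) with its 95% interval for each of the 48 member probe sets, grouped by role; filled points mark the brightest probe set of a gene, open points its other probe sets and red points an adjusted p under 0.05. TGFB2 at 1.76 and FSTL3 at 1.71 stand clear of the other members, which lie between -0.38 and 0.77.

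The deposited values had already been brought to a common distribution, so array medians of 5.48 to 5.54 do not compare the samples. The 9 measured markers of ventricular cardiomyocytes averaged 13.59 to 13.83 in hypoxia calves and 13.65 to 13.74 in control calves, near the top of the scale of 14.4. Cell division markers moved with hypoxia, with all 8 measured genes higher and list means of 5.29 to 6.67 in hypoxia calves and 4.16 to 4.52 in control calves (p = 0.00794 by a two-sided exact permutation test, the lowest value possible with 5 against 5, and adjusted p = 0.0529 over 10 marker lists). The 3 measured atrial markers averaged 7.18 to 9.15 in hypoxia calves and 5.80 to 7.21 in control calves, and the 8 lymphocyte markers 3.93 to 4.51 in hypoxia calves and 4.49 to 5.06 in control calves (exact permutation p = 0.0159 for each, adjusted p = 0.0529). Among the atrial markers NPPA differed by 2.13, MYL4 by 0.62 and SLN by 0.26, and none passed (limma adjusted p = 0.0980, 0.487 and 0.659). The atrial list mean thus rested largely on NPPA. Of the 8 lymphocyte markers, 0 had a mean level above the median of all probe sets (5.52), so their levels cannot be told from background. CD8A, CD3G, CD2, CD3D and CD3E differed by -1.14 to -0.35, and CD4, MS4A1 and CD79A by -0.05 to 0.06. None of the 8 passed by limma. The 3' minus 5' signal of the actin control probe sets, a measure of RNA integrity, was 1.51 to 2.55 in hypoxia calves and 2.81 to 4.35 in control calves (exact permutation p = 0.00794, adjusted p = 0.175 over 22 control genes). For GAPDH it was 0.15 to 0.39 in hypoxia calves and 0.07 to 0.60 in control calves. Fibroblast markers had list means of 9.56 to 10.19 in hypoxia calves and 9.72 to 10.20 in control calves. The 10 genes had a median difference of 0.09. Of them 2 passed, both lower in hypoxia, a share of 20% against 3.66% of all named genes on their brightest probe sets. PDGFRA, a growth factor receptor, fell by 0.89 and MFAP4, a microfibril protein, by 0.82 on the log2 scale (limma adjusted p = 0.0213 and 0.0493). PDGFRA passed on 1 of 3 probe sets, which differed by -0.89 to 0.14. The part of these shifts in the pathway results was not tested. In bulk tissue, fewer cells of a type and less RNA per cell cannot be told apart.

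TGFB2 encodes the TGF-beta isoform that acts in formation of the cardiac cushions and valves. On its probe set, log2 expression was 7.27, 7.27, 6.61, 8.50 and 6.74 in hypoxia calves 173, 178, 192, 199 and 204, and 6.04, 6.004, 4.83, 5.46 and 5.24 in control calves 176, 177, 180, 181 and 195. The groups did not overlap, and calf 199 stood well above the other hypoxia calves. The mean was 7.28 ± 0.74 in hypoxia and 5.52 ± 0.51 in controls (SD, n = 5 each). The control mean, 5.517, was just below the median level of all probe sets, 5.524. Control levels of TGFB2 thus cannot be told from background, which limits the reading of the fold. TGFB2 rose by 1.76 ± 0.34, or 3.39-fold (95% interval 2.02-fold to 5.71-fold; limma adjusted p = 0.0238). The call ended without control calf 181 (adjusted p = 0.0616), without hypoxia calf 178 (adjusted p = 0.0519), without hypoxia calves 178 and 199 together (1.36, adjusted p = 0.0683) and with the run of calf numbers as a block (adjusted p = 0.0572). Within the lower run of calf numbers (2 hypoxia and 4 control calves) TGFB2 differed by 1.68, and within the upper run (3 hypoxia calves and 1 control calf) by 2.04, with no call in either (adjusted p = 0.116 and 0.472).

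The other ligands of this branch, TGFB1 and TGFB3, did not pass. Their mean levels were below the median of all probe sets (5.52), at percentiles 43.8 and 45.1, and cannot be told from background. TGFB1, the isoform best known for driving fibrosis, was 5.32, 4.57, 5.15, 5.35 and 5.13 in hypoxia calves and 4.90, 5.31, 4.62, 5.00 and 4.98 in control calves, each in the order of calf numbers used above. The groups overlapped, and the difference of 0.14 ± 0.16 (95% interval -0.21 to 0.50, adjusted p = 0.717) was smaller than the spread within either group. TGFB3, another isoform, was 5.48, 5.75, 5.03, 5.76 and 4.99 in hypoxia calves and 4.04, 5.93, 4.44, 4.68 and 5.20 in control calves. Control calf 177 had the highest TGFB3 value of all 10, and the difference was 0.55 ± 0.31 (95% interval -0.14 to 1.23, adjusted p = 0.411). The interval of TGFB2, 1.01 to 2.51 in log2, lay wholly above that of TGFB1 and overlapped that of TGFB3. Whether the isoforms differ from each other in their response was not tested.

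Latency proteins, which hold TGF-beta in the matrix, were measured for LTBP1 and LTBP2. LTBP2, which binds fibrillin rather than TGF-beta itself, was 7.75, 7.84, 7.64, 8.23 and 7.60 in hypoxia calves and 6.82, 7.09, 7.83, 7.48 and 7.47 in control calves on its brighter probe set. Control calf 180 lay among the hypoxia calves, and the difference of 0.48 ± 0.18 did not pass (adjusted p = 0.202). Its other probe set gave a similar 0.49 ± 0.23 (adjusted p = 0.295). LTBP1, which does bind TGF-beta, was 5.99 to 7.22 in hypoxia calves and 6.20 to 7.50 in control calves, with a difference of -0.14 ± 0.28 (adjusted p = 0.854).

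**Figure D2:**
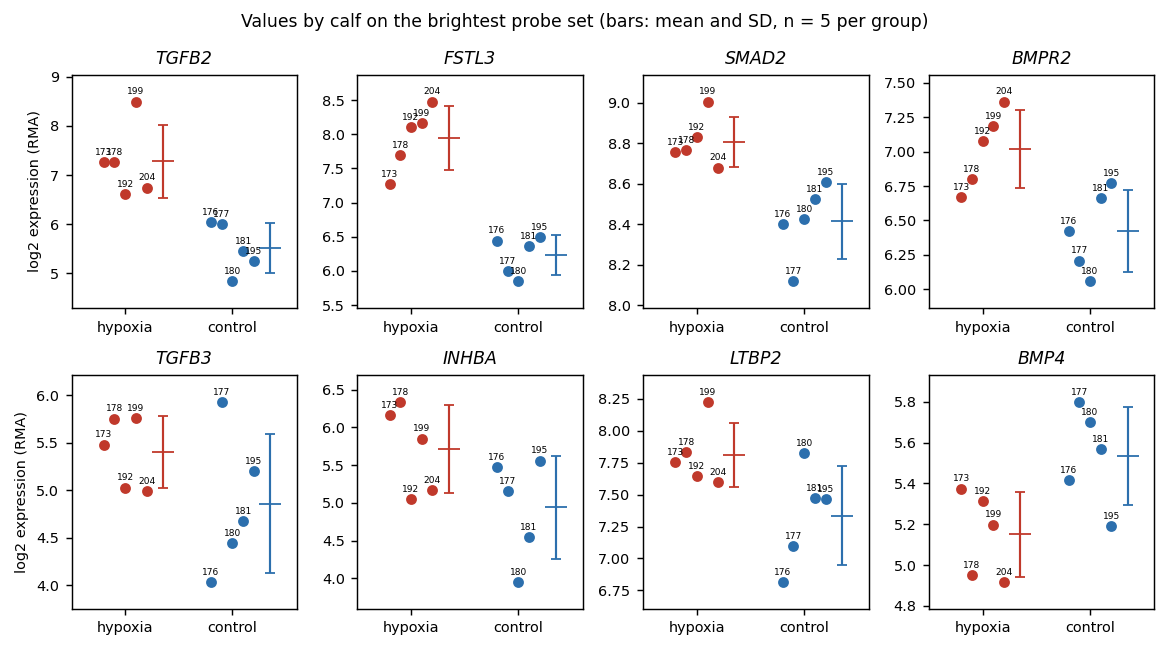
Log2 expression in each calf on the brightest probe set of 8 members, hypoxia calves in red and control calves in blue, labelled by calf number, with the mean and SD beside the points (n = 5 per group). Groups do not overlap for TGFB2, FSTL3 and SMAD2, and they overlap for the other 5.

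FSTL3 was the other member that passed. It encodes a secreted glycoprotein of the follistatin family that binds activin and myostatin and keeps them from their receptors. Its probe set read 7.27, 7.70, 8.10, 8.17 and 8.48 in hypoxia calves 173, 178, 192, 199 and 204, and 6.44, 6.001, 5.85, 6.37 and 6.50 in control calves 176, 177, 180, 181 and 195. The lowest hypoxia calf was 0.77 above the highest control calf, and calf 204, not calf 199, was highest. The mean was 7.94 ± 0.47 in hypoxia and 6.23 ± 0.29 in controls (SD, n = 5 each). FSTL3 rose by 1.71 ± 0.22, or 3.28-fold (95% interval 2.36-fold to 4.54-fold; limma adjusted p = 0.00479). It passed under 18 of 18 alternatives that kept both runs of calf numbers, with differences of 1.48 to 1.88 and a highest adjusted p of 0.0282. The call ended within the lower run (1.32, adjusted p = 0.0813) and within the upper run (1.75, adjusted p = 0.179).

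Follistatin itself, FST, which neutralises activins and several BMPs, did not pass and had the opposite sign. It was 3.75, 3.68, 3.79, 4.75 and 3.66 in hypoxia calves and 4.07, 4.39, 3.84, 4.24 and 4.19 in control calves, a dim probe set at percentile 31.0 of all mean levels. In 4 of 5 hypoxia calves FST lay below every control calf, while calf 199 lay above them all, and the difference was -0.22 ± 0.20 (adjusted p = 0.629). BMPER, a secreted protein that binds BMPs, read 2.56 to 3.23 in hypoxia calves and 2.91 to 3.97 in control calves on the brighter of 2 dim probe sets, with a difference of -0.31 ± 0.21 (adjusted p = 0.506).

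INHBA encodes the beta-A subunit, which pairs with itself to form activin A, a ligand that FSTL3 binds. It was 6.16, 6.34, 5.05, 5.85 and 5.17 in hypoxia calves and 5.47, 5.16, 3.96, 4.55 and 5.56 in control calves. The mean level was below the median of all probe sets, at percentile 47.6. Hypoxia calves 173, 178 and 199 lay above all controls, while calves 192 and 204 lay within their range. The difference of 0.77 ± 0.34, or 1.71-fold (95% interval 1.02-fold to 2.86-fold), did not pass (adjusted p = 0.259). Its direction was not the same in the runs of calf numbers: INHBA differed by 1.47 ± 0.38 within the lower run and by -0.20 ± 0.36 within the upper run (adjusted p = 0.182 and 0.901). MSTN, the gene of myostatin and another ligand that FSTL3 binds, was dim on its brightest probe set, with means of 2.69 in hypoxia and 2.68 in controls, and a difference of 0.01 ± 0.09 (adjusted p = 0.972).

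**Figure D3:**
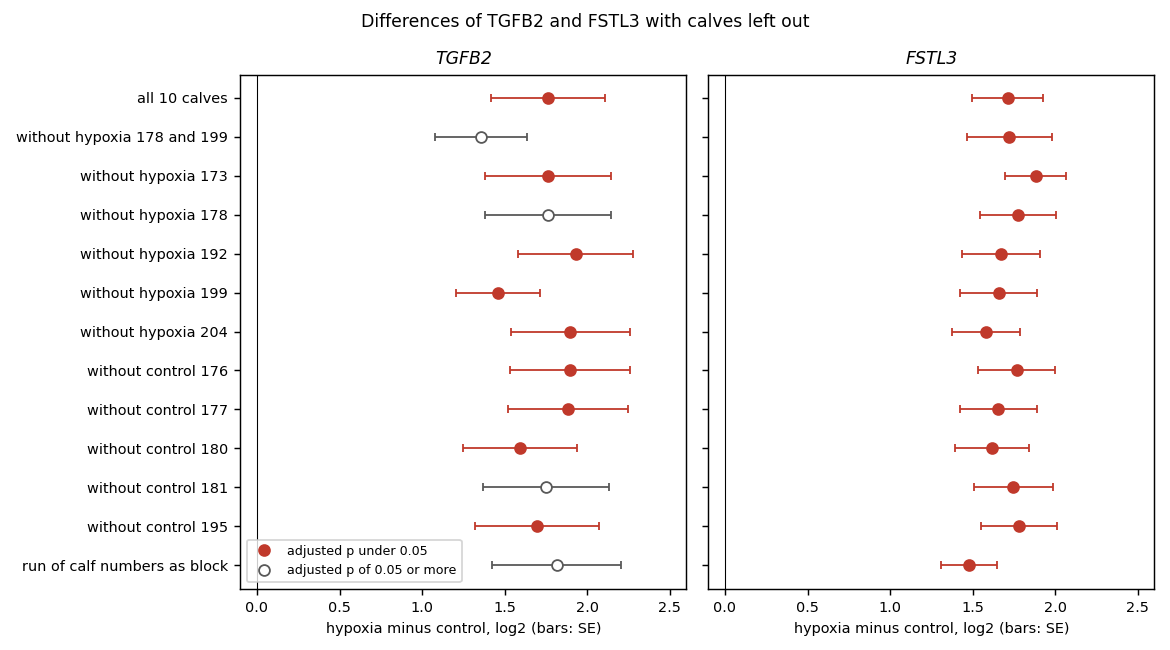
Difference of TGFB2 (left) and FSTL3 (right) in log2 expression (hypoxia minus control, bars are SE) with all calves, with calves left out and with the run of calf numbers as a block; filled red points have an adjusted p under 0.05. TGFB2 ranges from 1.36 to 1.93 and loses its call in 4 of these fits, and FSTL3 ranges from 1.48 to 1.88 and keeps it in each.

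None of the 13 probe sets for 9 BMP and GDF ligands passed (limma; 1 had an unadjusted p under 0.05), and 12 of them differed by less than 0.3. BMP4, a ligand of heart field and septum development, had the largest difference in the class. It was 5.37, 4.95, 5.31, 5.20 and 4.92 in hypoxia calves and 5.42, 5.80, 5.70, 5.57 and 5.19 in control calves. The mean level was below the median of all probe sets, at percentile 47.8. The groups overlapped through control calf 195, and BMP4 differed by -0.38 ± 0.14 (1.30-fold lower in hypoxia, adjusted p = 0.161). Within the lower and the upper run of calf numbers the difference was -0.46 and -0.05. BMP2, which acts in formation of the atrioventricular canal, was 5.23 to 5.64 in hypoxia calves and 4.99 to 6.41 in control calves, and differed by -0.26 ± 0.23 (adjusted p = 0.611). The controls spread more widely than the hypoxia calves for this gene, with SDs of 0.16 in hypoxia and 0.56 in controls.

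BMP5 and BMP7 had bright probe sets, at percentiles 92.9 and 92.5 of all mean levels. BMP5 was 8.91 to 10.13 in hypoxia calves and 9.58 to 10.23 in control calves, with a difference of -0.24 ± 0.23 (adjusted p = 0.652). BMP7 gave -0.14 ± 0.21 on its brighter probe set and 0.20 ± 0.22 on the other. The probe sets of BMP7 thus differed in sign, each within its own error. GDF5, GDF6, GDF7, GDF9 and BMP15, of which GDF9 and BMP15 are known from the oocyte, differed by -0.10 to 0.21 over their 8 probe sets, and no adjusted p among them was below 0.443.

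The receptors were measured by 15 probe sets of 9 genes, none of which passed (limma; 2 had an unadjusted p under 0.05), with a median difference of 0.07. BMPR2, the type II BMP receptor whose loss-of-function variants cause heritable pulmonary arterial hypertension in humans, had the largest difference. On its brightest probe set it was 6.67, 6.80, 7.08, 7.18 and 7.36 in hypoxia calves and 6.42, 6.21, 6.06, 6.66 and 6.77 in control calves. In 4 of 5 hypoxia calves it exceeded every control, calf 173 being the exception. The difference was 0.60 ± 0.17, or 1.51-fold (95% interval 1.17-fold to 1.95-fold), and did not pass (adjusted p = 0.0837). It passed under none of 18 alternatives nor within either run of calf numbers, and 2 dimmer BMPR2 probe sets differed by 0.12 and -0.18.

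Type I and type II TGF-beta receptors did not pass either. TGFBR2, which binds the ligand first, was 9.04, 9.60, 8.89, 9.38 and 8.95 in hypoxia calves and 8.72, 9.08, 8.96, 9.15 and 8.88 in control calves. Only calves 178 and 199 exceeded the controls, and the difference was 0.21 ± 0.15 (adjusted p = 0.509). TGFBR1, its kinase partner, read 2.71 to 3.00 in hypoxia calves and 2.81 to 3.04 in control calves, a dim probe set (percentile 11.5 of all mean levels), and differed by -0.11 ± 0.09 (adjusted p = 0.584). The BMP type I receptors ACVR1 and BMPR1A differed by 0.07 ± 0.12 and 0.04 ± 0.12 on their brightest probe sets. ACVRL1, the type I receptor of endothelium, had the smallest SE of the 15 receptor probe sets, with 6.88 to 7.05 in hypoxia calves and 6.80 to 7.10 in control calves and a difference of 0.03 ± 0.08 (95% interval -0.15 to 0.22). The activin receptors ACVR2A and ACVR2B differed by 0.10 ± 0.16 and -0.003 ± 0.16, and BMPR1B, at or below percentile 19.3, by -0.09 ± 0.16 on its brighter probe set.

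Among the transducers, SMAD2, which carries TGF-beta and activin signals, was the third member whose groups did not overlap. Such separation was seen in 3 of 48 member probe sets and in 5.46% of all probe sets. SMAD2 was 8.76, 8.77, 8.83, 9.01 and 8.68 in hypoxia calves and 8.40, 8.12, 8.42, 8.52 and 8.61 in control calves. The gap between the groups was only 0.07, between hypoxia calf 204 and control calf 195. SMAD2 differed by 0.39 ± 0.11, or 1.31-fold (95% interval 1.12-fold to 1.54-fold), and did not pass (adjusted p = 0.0772; 0.0584 to 0.279 over 18 alternatives that kept both runs). Within the lower and the upper run of calf numbers SMAD2 differed by 0.40 and 0.23 (adjusted p = 0.349 and 0.756).

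SMAD3, the partner of SMAD2, differed by 0.13 ± 0.12 on its brighter probe set and by -0.15 ± 0.19 on the other (adjusted p = 0.630 and 0.745). SMAD4, shared by all branches, was bright and even, with 9.67 to 9.98 in hypoxia calves and 9.91 to 10.15 in control calves and a difference of -0.14 ± 0.09 (adjusted p = 0.459). SMAD5, of the BMP branch, differed by 0.13 ± 0.12 and 0.12 ± 0.13 on its 2 probe sets. None of the 6 transducer probe sets passed (limma; 1 had an unadjusted p under 0.05). TGFBR3, BMP10, INHBB, FSTL1, SMAD6, SMAD7, LTBP3 and LTBP4 had no probe set with their symbol and were not analysed here.

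The rule also took in 3 genes that carry a matching symbol without being part of the signalling chain. TGFBI, a matrix protein first found as a TGF-beta induced gene, was 9.83, 10.51, 9.02, 10.46 and 9.11 in hypoxia calves and 9.42, 9.81, 9.07, 9.14 and 8.86 in control calves. Hypoxia calves 173, 178 and 199 lay above all controls, calf 173 by a small margin, and calves 192 and 204 lay among them. The difference was 0.53 ± 0.31 (adjusted p = 0.414), and it was 0.06 without calves 178 and 199. TGFB1I1, a focal adhesion adaptor also called Hic-5, differed by 0.18 ± 0.22, and TGFBRAP1, a receptor-associated protein, by -0.16 ± 0.12 (adjusted p = 0.736 and 0.556).

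**Figure D4:**
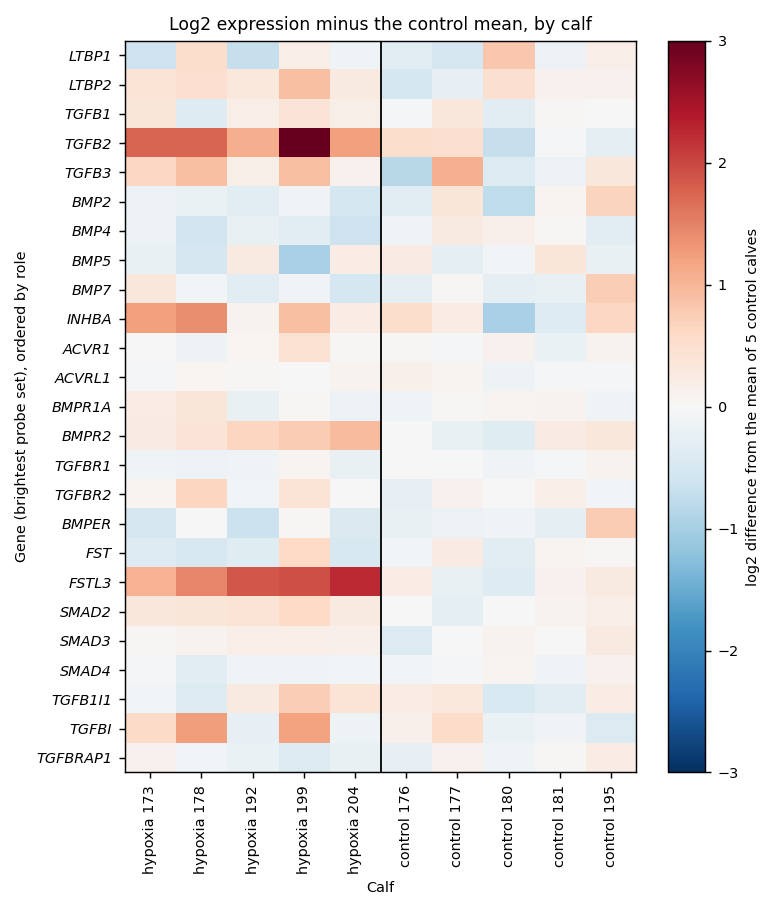
Log2 expression of the 25 named members in each calf minus the mean of the 5 control calves, hypoxia calves left of the line and control calves right of it, genes ordered by role. TGFB2 and FSTL3 are raised in all 5 hypoxia calves, and INHBA and TGFBI lie higher in calves 173, 178 and 199 than in 192 and 204.

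Hypoxia calves differed among themselves in a way that part of the members shared. Calves 192 and 204 had the 2 lowest hypoxia values in 12 of 48 member probe sets, or 25%, against 9.96% of all probe sets, a comparison chosen after the values were seen. These 12 included both probe sets of LTBP2 and of BMP7, beside TGFB2, TGFB3, INHBA, TGFBR2 and TGFBI. TGFB1, BMP4 and BMP5 were not among them. FSTL3 and BMPR2 ran the other way, with calves 173 and 178 lowest and calf 204 highest. The list mean of fibroblast markers was also lowest in calves 204 and 192 (9.56 and 9.78, with 9.92 to 10.19 among the remaining hypoxia calves), as was that of smooth muscle and pericyte markers (8.22 and 8.05, with 8.34 to 8.70 among the remaining ones). Macrophage markers were lowest in the same calves too (7.56 in 192 and 8.112 in 204), with calf 173 nearly equal at 8.114. Markers of ventricular cardiomyocytes, of lymphocytes and of valve, epicardium and nerve were highest in these 2 calves. The ventricular list did so narrowly (13.782 in 192, 13.834 in 204 and 13.780 in 173). Atrial, endothelial, adipocyte and cell division lists had neither order. The part of these cell types in the pattern was not tested.

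Textbook targets of TGF-beta and activin signalling did not pass as single genes. Of 23 measured genes, 0 passed in either direction by limma, against 3.66% of 9155 named genes on their brightest probe sets (2.17% rose and 1.49% fell). At an unadjusted p under 0.05 there were 4 of 23, against 2050 of 9155. The median difference was 0.23, against -0.01 over all named genes. TIMP1, an inhibitor of matrix metalloproteinases, was 9.65, 11.48, 9.72, 12.29 and 8.93 in hypoxia calves and 8.69, 8.69, 8.37, 8.75 and 8.84 in control calves. Every hypoxia calf exceeded every control calf, but calf 204 by only 0.10, and the wide spread in hypoxia left a difference of 1.75 ± 0.53 that did not pass (adjusted p = 0.106). NOX4, an oxidase that generates hydrogen peroxide, had the smallest p of the list, with a difference of 0.63 ± 0.17 (adjusted p = 0.0808), and hypoxia calves 178 and 199 were highest at 3.90 and 3.98. Its groups, 3.10 to 3.98 in hypoxia calves and 2.76 to 2.97 in control calves, did not overlap. All of these NOX4 values were below the median level of all probe sets (5.52) and cannot be told from background. A second NOX4 probe set differed by -0.08, and the mean over both gave 0.28 (limma adjusted p = 0.177). Without calves 178 and 199 the difference on the brighter probe set was 0.32. CCN2, the connective tissue growth factor, was 11.82 to 13.12 in hypoxia calves and 9.97 to 12.69 in control calves, with a difference of 1.23 ± 0.44 (adjusted p = 0.160).

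Within hypoxia, calves 192 and 204 were the 2 lowest in 10 of these 23 targets, or 43.5%, against 9.96% of all probe sets. This pair of calves was chosen after the values were seen. Genes of a list are not independent within a calf, and the count was not tested. Among BMP targets it was 0 of 9, a list too short to be told apart from 9.96%. The 10 TGF-beta and activin targets included COL1A1, COL1A2, COL3A1, FN1, POSTN and LOX. COL1A1, COL1A2 and COL3A1 are also on the fibroblast list, whose mean was lowest in the same 2 calves. COL1A1, a fibrillar collagen chain, was 10.35, 9.54, 9.50, 10.35 and 9.26 in hypoxia calves and 9.62, 10.37, 9.11, 9.81 and 9.58 in control calves. The groups overlapped almost fully, and the difference was 0.10 ± 0.26 (adjusted p = 0.890).

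Targets of BMP signalling were measured for 9 genes, of which 1 rose and 0 fell, a share of 11.1% against 3.66% of all named genes (2.17% rose), with a median difference of 0.003. SPP1, the secreted matrix protein osteopontin and a target of several other pathways as well, was the gene that rose. It was 8.36, 10.27, 9.35, 9.96 and 6.30 in hypoxia calves and 5.42, 4.58, 7.01, 4.28 and 4.10 in control calves. The groups overlapped, with hypoxia calf 204 below control calf 180. SPP1 differed by 3.77 ± 0.75 (limma adjusted p = 0.0248). It lost its call when control calf 177 or 181, or hypoxia calf 178, 192 or 199, was left out (adjusted p up to 0.0686). The call was also lost without calves 178 and 199 together (2.93, adjusted p = 0.134). The inhibitors of differentiation ID1, ID2 and ID3, the most direct readouts of BMP signalling, were named after their values were seen. On their brightest probe sets they differed by -0.06 ± 0.24, -0.13 ± 0.24 and -0.24 ± 0.18 (limma adjusted p = 0.925, 0.839 and 0.529). Without calves 178 and 199 ID1 and ID2 changed sign on these probe sets, to 0.01 and 0.07. A second ID1 probe set differed by 0.005 and a second ID2 probe set by -0.48, and neither passed.

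Extracellular regulators outside the symbol rule gave 1 gene higher and 1 lower of 18 measured, a share of 11.1% against 3.66% of all named genes (2.17% rose and 1.49% fell), with a median difference of 0.01. FURIN, the protease that cleaves TGF-beta and BMP precursors, was 5.83, 6.08, 5.98, 5.67 and 6.33 in hypoxia calves and 6.28, 6.88, 6.73, 6.93 and 7.00 in control calves on its brighter probe set. Hypoxia calf 204 overlapped with control calf 176, and the other hypoxia calves lay below all controls. FURIN fell by 0.79 ± 0.16 on the log2 scale (1.72-fold; 95% interval -1.13 to -0.44, adjusted p = 0.0254). A dimmer FURIN probe set gave -0.30 and did not pass. The call ended when control calf 177 or 181, or hypoxia calf 192 or 199, was left out (adjusted p up to 0.0690), without calves 178 and 199 (-0.72, adjusted p = 0.120) and with the run of calf numbers as a block (adjusted p = 0.0513).

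BGN, a small proteoglycan that binds TGF-beta, rose by 1.10 ± 0.19 and passed on 2 of 2 probe sets (adjusted p = 0.0163 on the brighter), but not without calves 178 and 199 (0.94, adjusted p = 0.0578). Intracellular regulators gave 0 of 16 genes in either direction by limma, against 3.66% of all 9155 named genes, with a median difference of -0.02. At an unadjusted p under 0.05 there were 3 of 16, against 2050 of 9155. STUB1, a ubiquitin ligase, differed by -0.41 ± 0.11 (adjusted p = 0.0716), and TAB1, a partner of the kinase TAK1, by -0.40 ± 0.13 (adjusted p = 0.121). PMEPA1, a TGF-beta induced inhibitor of SMAD2 and SMAD3, differed by 0.60 ± 0.20 (adjusted p = 0.136).

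**Figure D5:**
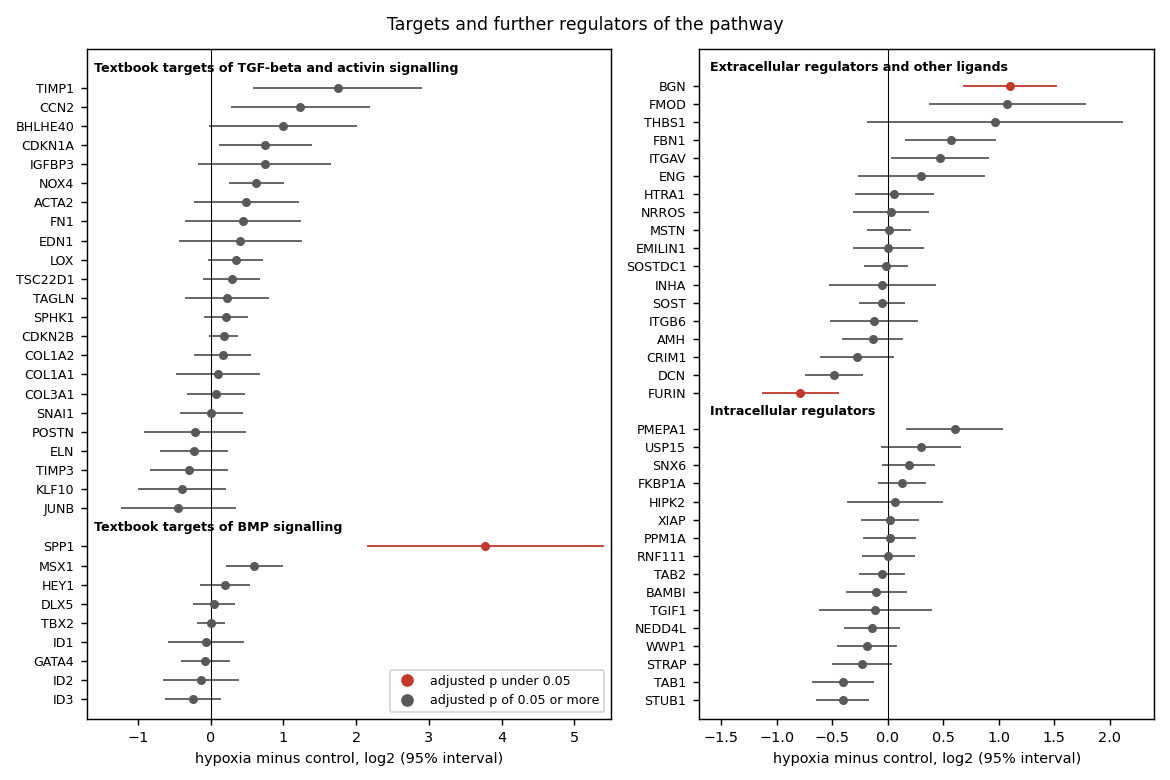
Difference in log2 expression (hypoxia minus control) with its 95% interval for the measured targets of the pathway (left) and for extracellular and intracellular regulators outside the symbol rule (right), on the brightest probe set of each gene; red points have an adjusted p under 0.05. SPP1 and BGN rose, FURIN fell, and the 23 TGF-beta and activin targets hold no gene that passed.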

How the data were processed

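Per the submitters' processing notes, the authors made the deposited log2 values with RMA. Its software is not given in the sources used here. This method forces the arrays to a common distribution, so a shift of all transcripts would be removed. The 2 tables were equal in every shared cell. Affymetrix control probe sets (112) were left out, and 24016 were tested.

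Names came from the platform annotation (13292 probe sets with 1 symbol, 86 with several, 10638 with none). Of 48 members, 47 had an Entrez identifier in the RefSeq table, and 0 symbols changed. Of these 48, 25 were at or below the median level of 5.52. The files give no detection call, so such levels cannot be told from background. Levels of different probe sets were not compared.

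Hypoxia minus control was fitted with limma 3.58.1 in R 4.3.3 (lmFit, eBayes) with p-values adjusted by Benjamini-Hochberg across the 24016 probe sets and a threshold of 0.05.  The procedure was tested on simulated data. List genes were read on the probe set with the highest mean over all arrays. The members and lists were chosen with earlier results of these data known. Named members were those that passed, a fixed set of ligands, receptors, antagonists and SMADs, and the 3 largest differences in each role. Named list genes were up to 6 that passed, or otherwise the 3 with the smallest p. COL1A1, MSTN and the genes described in the closing section were named after their values were seen. The number of arrays limits the precision.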

Additional observations from a re-analysis of the deposited data

Results flagged for a closer look

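In 5 of 86 groups of 5 calves examined among the named genes, 1 calf lay far from the other 4. Chance alone marks about 1 group in 20. FST read 4.75 in hypoxia calf 199, against 3.66 to 3.79 in the other hypoxia calves. TGFB1 read 4.57 in hypoxia calf 178, against 5.13 to 5.35 in the others. ID2 was 8.13 in the same calf, against 8.87 to 9.06 in the others. Control calf 195 stood out for BMPER, with 3.97 against 2.91 to 3.09 in the other controls, and for PMEPA1, with 5.45 against 4.72 to 4.83.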

How the results depend on the processing

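Array scaling, trend and robust variance, array weights, the filter on dim probe sets and the mean over probe sets of a gene each left TGFB2 and FSTL3 as the only members that passed. Scaling again could change little, since RMA had already brought the arrays to a common distribution. The filter leaves fewer probe sets tested (23 members). It used the mean over all arrays, and TGFB2 stayed in through its hypoxia calves. Its control mean of 5.517 was below the cut of 5.524, so keeping its call under this filter is not separate support. Leaving out 1 calf in turn gave 1 to 2 passing members, 241 to 605 passing probe sets in all, 1 to 3 extracellular regulators and 0 to 1 BMP targets. The count over all probe sets, 652 with all calves, was 288 without control calf 177, 241 without control 181, and 361, 403, 348 and 396 without hypoxia calves 178, 192, 199 and 204. With the run of calf numbers as a block (numbers up to 190 against higher ones, which the labels do not call a batch) 217 probe sets, 1 member (FSTL3) and 1 extracellular regulator (BGN) passed. The lower run holds 2 hypoxia and 4 control calves and the upper run 3 hypoxia and 1 control. Within the lower and the upper run TGFB2 differed by 1.68 and 2.04, and FSTL3 by 1.32 and 1.75, and 0 members passed within either run (limma; 7 in the lower and 6 in the upper had an unadjusted p under 0.05). Of the 7 members read singly within the runs, INHBA turned direction, with 1.47 in the lower and -0.20 in the upper run. The members outside these 7 were not examined for direction within the runs. Without hypoxia calves 178 and 199, 155 probe sets, 1 member (FSTL3), 0 extracellular regulators and 0 BMP targets passed. Beyond fewer samples, the cause was not tested.

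Among the named genes, sign changes in fits that kept both runs were seen only in differences that did not pass. They were -0.0205 for BMPR1A with array weights, -0.0104 for ACVR1 and -0.0336 for TGFB1I1 with the block, and 0.0310 for BMP7 and -0.00838 for SMAD3 with the mean over probe sets. Without calves 178 and 199 they were 0.0907 for BMP5, -0.0602 for BMPR1A, -0.0015 for TGFBR2, 0.0136 for ID1 and 0.0728 for ID2. With 1 calf left out the differences ranged from -0.26 to 0.0459 for BMP7, -0.31 to 0.0600 for LTBP1, -0.000891 to 0.0736 for ACVRL1, -0.0384 to 0.11 for BMPR1A, -0.0191 to 0.13 for ACVR1, -0.20 to 0.10 for ID1 and -0.24 to 0.0390 for ID2. No paired analysis was possible because hypoxia and control calves share no number.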

Other observations

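Several extracellular genes that touch TGF-beta availability differed without passing, and were named after their values were seen. DCN, a proteoglycan that binds TGF-beta, was 11.62, 11.32, 11.41, 11.49 and 11.29 in hypoxia calves and 11.99, 12.10, 11.61, 12.13 and 11.75 in control calves. It differed by -0.49 ± 0.12 (limma adjusted p = 0.0537), opposite in sign to BGN, and it passed in 6 of 18 alternatives (adjusted p 0.0371 to 0.199). DCN is also on the fibroblast list, whose 10 genes had a median difference of 0.09. Of these, PDGFRA and MFAP4 passed as lower (-0.89 and -0.82). The part of fibroblasts in the DCN difference was not tested. FMOD, a related proteoglycan, differed by 1.07 ± 0.32 and FBN1, the fibrillin of matrix microfibrils, by 0.57 ± 0.19 (adjusted p = 0.102 and 0.138). ITGAV, the integrin subunit that takes part in release of latent TGF-beta, differed by 0.47 ± 0.20 (adjusted p = 0.250). Among the targets, CDKN1A, a cell cycle inhibitor, differed by 0.75 ± 0.29 and MSX1, a homeobox gene of the BMP branch, by 0.60 ± 0.18 (adjusted p = 0.205 and 0.0983).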
